A study of Mus musculus with 4 samples.

Results

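The glucocorticoid system was described in brain septal tissue of restraint-stressed mice through 10 genes: the 2 corticosteroid receptors Nr3c1 and Nr3c2, the steroid-activating enzyme Hsd11b1, and the 7 glucocorticoid-induced genes Fkbp5, Sgk1, Tsc22d3, Zbtb16, Klf9, Cdkn1a and Ddit4. They were chosen by gene symbol among 15409 gene rows, and each symbol was found on 1 row. The series compared mice without a T cell receptor beta chain (TCRb-/-) with wild-type (WT) mice, with 1 library of each genotype in experiment 1 and 1 in experiment 2, so 4 libraries in all. Each library pooled the septal tissue of 4 to 5 mice, and every mouse, WT included, had been restrained for 30 min a day on 3 days and was killed 1.5 h after the last session. No group without restraint was analysed here, so the values are levels after stress and not inductions by it. TCRb-/- mice lack alpha-beta T cells and still have gamma-delta T cells and B cells. The sources used here do not name strain, age or sex. The replicate number of a library is its experiment. Nothing in the labels says that the pools of a genotype came from separate cohorts, so p-values measure only the spread between these pools, which may be partly technical.

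Corticosterone, released by the adrenal gland during stress, enters cells and binds 2 nuclear receptors. The mineralocorticoid receptor (Nr3c2) binds it with high affinity and is largely occupied at rest, whereas the glucocorticoid receptor (Nr3c1) has a lower affinity and is occupied when the hormone rises. The bound receptors move to the nucleus and, at many target genes, bind glucocorticoid response elements, imperfect palindromes of a short half-site. In the limbic system, to which the septum belongs, the receptors shape the response to stress and its termination.

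To show what such an element looks like beside a gene measured here, the RefSeq promoters (GRCm38.p6, from 250 bases before to 50 bases after each transcript start) were searched for the palindrome made of the half-sites AGAACA and TGTTCT with any 3 bases between them, and for either half-site alone, on both strands; a full element also counts as a half-site. A total of 8 of the 10 genes had a promoter in the table, and they had 16 promoters between them, 6 of them of Sgk1. Nr3c1 and Zbtb16 had none. Full elements with other letters, or further from a start, were not searched. The full element was in 1 of these 16, an internal start of Sgk1, and in 3 of all 32851 promoters (0.00913%). The others of the 3 belong to Acnat2 and Gm35041, which are not among the listed rows and were named after the search. A half-site was in 4 of the 16 promoters, of Sgk1 and Tsc22d3, and in 19.0% of all promoters. The windows below give the full element and the half-sites of the other 3 promoters, with the matched bases in capitals, 5′ to 3′ on the strand of the gene.
Sgk1 full element, chr10:21993651-21993765, plus strand: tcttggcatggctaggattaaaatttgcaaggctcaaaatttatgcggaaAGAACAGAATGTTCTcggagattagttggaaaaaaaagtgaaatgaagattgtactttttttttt
Sgk1 half-site, chr10:21992190-21992222, plus strand: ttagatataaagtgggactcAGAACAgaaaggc
Sgk1 half-site, chr10:21881969-21882014, plus strand: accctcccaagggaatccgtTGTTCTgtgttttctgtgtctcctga
Tsc22d3 half-site, chrX:140600682-140600727, minus strand: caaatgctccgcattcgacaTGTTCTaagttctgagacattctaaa
The full Sgk1 element lay 175 bases before the transcript start at 21993890 of chromosome 10, in an intron of Sgk1 (GENCODE M21). A match describes letters in a window and is neither a binding site nor a cause of a level.

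The libraries held 19988137 to 26210790 reads, and levels are given as CPM, reads scaled to the library total. Trbc2, a constant segment of the missing chain, had 169 and 86 reads in WT replicates 1 and 2. It had 0 in either TCRb-/- pool (a count of 0 allows 0.122 CPM in replicate 1 and 0.150 in replicate 2). Of 9 T cell genes 3 were listed, summing to 6.35 and 8.005 CPM in the TCRb-/- pools and 14.65 and 13.02 CPM in the WT pools. Trbc2 itself is 1 of these 3 and made up 6.45 and 3.85 CPM of the sums in WT replicates 1 and 2. Of 11 septal markers 10 were listed, with sums of 194 to 234 CPM. TCRb-/- replicate 2 stood apart in its regional markers: the 10 striatal genes summed to 960 CPM there, against 4408 in TCRb-/- replicate 1 and 3957 and 2402 in WT replicates 1 and 2. In both experiment 2 pools the 11 choroid plexus genes were high (6902 and 4197 CPM against 2150 and 1316) and the 9 cortical and hippocampal genes low (339 and 426 CPM against 700.3 and 739). In pooled tissue, fewer cells of a type and less RNA per cell cannot be told apart.

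To compare genes with each other, CPM was divided by exon length, the union of all annotated exons of a gene. That union can exceed the length of the transcripts expressed, so levels per kb and their order depend on the annotation. Tsc22d3, which encodes the anti-inflammatory leucine zipper protein GILZ, had the highest level at 89.2 ± 7.01 CPM per kb (SD, n = 4), followed by the kinase gene Sgk1 at 80.9 ± 3.18. Both lay above 94.9% of the 13580 tested genes with a length. Their ranges overlapped (78.9 to 94.1 and 76.9 to 84.1 CPM per kb), so their order is not set beyond the spread. Klf9, a Krüppel-like transcription factor, came next at 39.7 ± 10.7 CPM per kb and did not overlap either neighbour.

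Ddit4 (14.2 ± 1.35 CPM per kb), Cdkn1a (12.1 ± 0.844) and Nr3c1 (11.3 ± 0.368) formed a middle group, with Cdkn1a and Nr3c1 overlapping. Fkbp5 followed at 7.12 ± 1.59 CPM per kb. At the low end were Hsd11b1 (3.53 ± 0.841), Nr3c2 (2.90 ± 0.411) and Zbtb16 (1.85 ± 0.312), of which Hsd11b1 and Nr3c2 overlapped and changed places between libraries. Zbtb16 lay above 27.2% of the tested genes. All 10 genes passed the filter of a mean of 1 CPM.

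**Figure D1:**
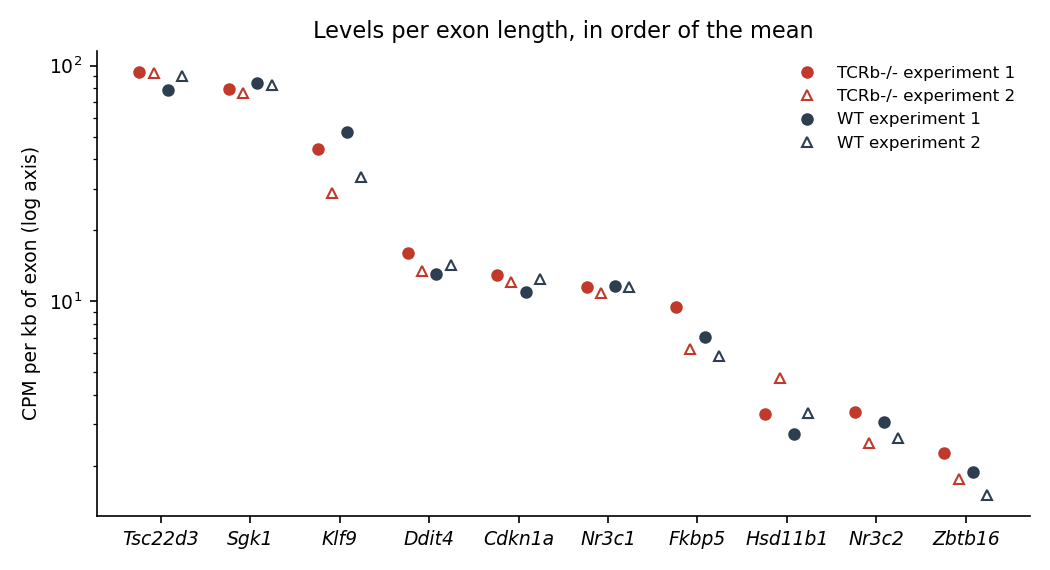
CPM per kb of exon on a log axis for each of the 10 genes, ordered by mean, with 1 point per library (red TCRb-/-, dark WT, circles experiment 1, triangles experiment 2). Tsc22d3 and Sgk1 sit between 76.9 and 94.1 CPM per kb in every library, and Zbtb16 is lowest.

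Of the receptors, Nr3c1 (chr18:39410545-39519421, minus strand, GRCm38 as for the genes below) varied least among the 10 genes. It was at 87.7 CPM (experiment 1) and 82.7 CPM (experiment 2) in the TCRb-/- pools, against 89.1 and 88.0 CPM in the WT pools. Both TCRb-/- pools were below both WT pools, and the highest of the 4 values was 1.08 times the lowest. The difference of TCRb-/- minus WT, here and below in log2(CPM + 1), was -0.05 (95% interval -0.36 to 0.25, limma adjusted p 1.00).

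Nr3c2 (chr8:76899442-77245012, plus strand) was at 22.0 CPM (experiment 1) and 16.2 CPM (experiment 2) in the TCRb-/- pools, against 19.9 and 17.0 CPM in the WT pools. Both experiment 1 pools were above both experiment 2 pools, while the genotypes overlapped. Its genotype difference was 0.04 (-0.48 to 0.55, limma adjusted p 1.00), with 0.14 inside experiment 1 and -0.06 inside experiment 2. With the experiment as a block the interval was -0.22 to 0.30 (limma adjusted p 0.987). The difference was -0.17 without TCRb-/- replicate 1 and -0.071 without WT replicate 2. A gene on the opposite strand, Gm10649, shares 247 exonic bases with Nr3c2, and without stranded counting their reads there cannot be told apart. Per exon length Nr3c1 exceeded Nr3c2 3.37-fold in TCRb-/- replicate 1, 4.30-fold in TCRb-/- replicate 2, 3.78-fold in WT replicate 1 and 4.37-fold in WT replicate 2. The ratio was higher in the experiment 2 pools of either genotype.

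Hsd11b1 (chr1:193221634-193264075, minus strand) encodes 11beta-hydroxysteroid dehydrogenase type 1, which regenerates active corticosterone from its inert 11-keto form inside cells. It was at 14.1 CPM (experiment 1) and 20.1 CPM (experiment 2) in the TCRb-/- pools, against 11.6 and 14.2 CPM in the WT pools. Within each experiment the TCRb-/- pool was higher, by log2 differences of 0.26 and 0.47, but WT replicate 2 was above TCRb-/- replicate 1, so the genotypes overlapped. Its genotype difference of 0.36 exceeded in size that of 96.2% of all tested genes, with a 95% interval of -0.21 to 0.93 and a limma adjusted p of 1.00. With the experiment as a block the interval was 0.08 to 0.64 (unadjusted p 0.0177, adjusted p 0.848). Without TCRb-/- replicate 2 the difference was 0.12, and without TCRb-/- replicate 1 it was 0.60. The order of the libraries was that of the choroid plexus, ependymal, meningeal fibroblast and thalamic marker sums, all 4 highest in TCRb-/- replicate 2 and lowest in WT replicate 1. The Hsd11b1 values between these, WT replicate 2 and TCRb-/- replicate 1, had overlapping counting intervals (12.7 to 15.9 and 12.7 to 15.7 CPM). For meningeal fibroblast genes, 8 of 8 listed, the sums were 37.3 and 59.2 CPM in the TCRb-/- pools and 36.7 and 43.7 CPM in the WT pools. Single genes of that list did not all follow the sum. Of the 7 tested, 1 was higher and 3 were lower in experiment 2 in both genotypes. The ependymal sums, 6 of 6 listed, were 155 and 182 CPM against 117 and 167, and the thalamic sums, 6 of 6 listed, 371 and 770 against 368 and 491. The median genotype difference of the thalamic genes was -0.20 in experiment 1 and 0.78 in experiment 2, so a shared order of sums is not a shared pattern of differences. The part of these 4 lists in the Hsd11b1 values was not tested.

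**Figure D2:**
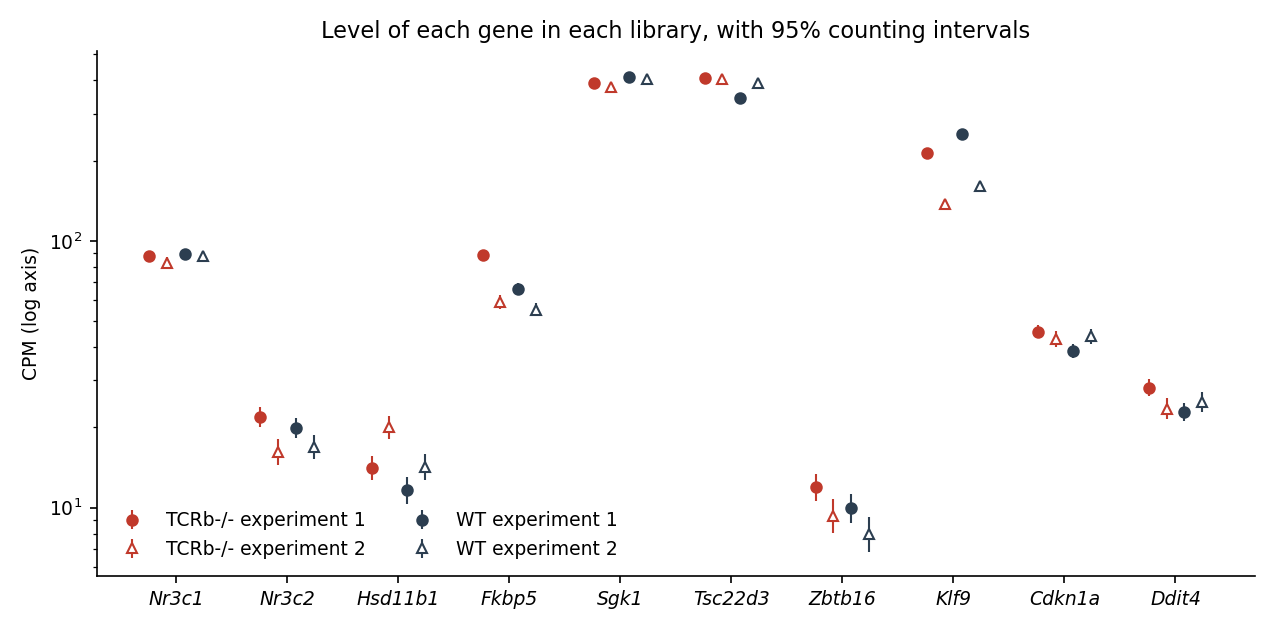
CPM of each gene in each library on a log axis, with exact 95% counting intervals as bars (red TCRb-/-, dark WT, filled circles experiment 1, open triangles experiment 2). Nr3c1 and Sgk1 are nearly level over the 4 libraries, and Klf9 is lower in both experiment 2 pools.

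Among the target genes, Fkbp5 (chr17:28399094-28517527, minus strand) encodes a co-chaperone of the glucocorticoid receptor that lowers the receptor's hormone binding and so forms a feedback loop. It was at 88.95 CPM (experiment 1) and 59.1 CPM (experiment 2) in the TCRb-/- pools, against 66.3 and 55.2 CPM in the WT pools. TCRb-/- replicate 1 stood above the other 3 pools. The ratio of TCRb-/- to WT was 1.34 in experiment 1 (95% counting interval 1.26 to 1.43) and 1.07 in experiment 2 (0.99 to 1.16). The overall difference was 0.26 (-0.32 to 0.83, limma adjusted p 1.00), and with the block 0.04 to 0.48 (unadjusted p 0.0271, adjusted 0.848). Without TCRb-/- replicate 1 it was -0.034.

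Tsc22d3 (chrX:140539528-140600659, minus strand) was at 408 CPM (experiment 1) and 405 CPM (experiment 2) in the TCRb-/- pools, against 343 and 392.2 CPM in the WT pools. Both TCRb-/- pools were above both WT pools, with most of the gap in experiment 1, where WT replicate 1 was the lowest. The difference was 0.15 (-0.18 to 0.48, limma adjusted p 1.00), and with the block -0.02 to 0.32 (limma adjusted p 0.848). It was 0.053 without WT replicate 1 and 0.25 without WT replicate 2. Its order over the libraries was also that of the 9 astrocyte genes, which summed to 2781 and 2744 CPM in TCRb-/- and 2535 and 2567 CPM in WT. The part of astrocyte RNA in it was not tested.

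Sgk1 (chr10:21882184-21999903, plus strand), a kinase that regulates ion channels and transporters, was at 391.9 CPM (experiment 1) and 377 CPM (experiment 2) in the TCRb-/- pools, against 412 and 405 CPM in the WT pools. Both TCRb-/- pools were below both WT pools by a small margin, and the 4 values lay within a ratio of 1.09. Its difference was -0.09 (-0.38 to 0.21, limma adjusted p 1.00), and with the block -0.24 to 0.06 (limma adjusted p 0.903). Sgk1 and Tsc22d3, the most abundant targets, had differences of opposite sign, neither past the threshold.

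Klf9 (chr19:23141226-23168134, plus strand) was at 214 CPM (experiment 1) and 138 CPM (experiment 2) in the TCRb-/- pools, against 252 and 161 CPM in the WT pools. In each experiment the TCRb-/- pool was lower, by nearly the same log2 difference, -0.24 and -0.22. The experiments differed by more than that, so the genotypes overlapped. Its genotype difference was -0.23 (-0.98 to 0.52, limma adjusted p 1.00), and with the block -0.38 to -0.08 (unadjusted p 0.00852, adjusted 0.848). It was 0.083 without TCRb-/- replicate 2 and 0.090 without WT replicate 1, which leave the experiments unbalanced.

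Zbtb16 (chr9:48654297-48836222, minus strand), a zinc finger transcription factor also known as PLZF, was at 11.9 CPM (experiment 1) and 9.31 CPM (experiment 2) in the TCRb-/- pools, against 9.96 and 7.96 CPM in the WT pools. It was higher in TCRb-/- within each experiment, by 0.24 and 0.20, and lower in experiment 2 within each genotype. With 178 to 293 reads per library its counting error was the widest of the 10 genes. The overall difference was 0.22 (-0.31 to 0.75, limma adjusted p 1.00), and with the block -0.08 to 0.52 (limma adjusted p 0.881). It was 0.057 without TCRb-/- replicate 1, 0.074 without WT replicate 2, 0.38 without TCRb-/- replicate 2 and 0.36 without WT replicate 1.

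Cdkn1a (chr17:29090976-29100727, plus strand) encodes the cell cycle inhibitor p21, and Ddit4 (chr10:59949669-59951834, minus strand) encodes REDD1, which restrains mTORC1. Cdkn1a was at 45.8 CPM (experiment 1) and 43.0 CPM (experiment 2) in the TCRb-/- pools, against 38.7 and 43.9 CPM in the WT pools. Ddit4 had 28.2 and 23.5 CPM in TCRb-/- and 22.9 and 24.9 CPM in WT. Both genes were highest in TCRb-/- replicate 1 and lowest in WT replicate 1. Their genotype differences were 0.10 (-0.25 to 0.46) and 0.11 (-0.31 to 0.52), each with a limma adjusted p of 1.00. With the block the intervals were -0.12 to 0.33 and -0.17 to 0.38 (limma adjusted p 0.924 and 0.935). Without TCRb-/- replicate 1 the difference of Ddit4 was -0.020. That of Cdkn1a was 0.014 without WT replicate 1 and 0.19 without WT replicate 2. A gene model on the opposite strand, AC167363.2, shares 273 exonic bases with Cdkn1a, so reads there could belong to either.

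By genotype, limma called 0 of the 10 genes and 0% of 13912 tested genes. At an unadjusted p under 0.05 it had 0 of the 10 and 0.309% of all genes. With the experiment as a block it still called 0 of the 10, against 0.0144% of all genes, and 3 of the 10 (Hsd11b1, Fkbp5 and Klf9) had an unadjusted p under 0.05, against 5.64%. The genotypes did not overlap for 3 of the 10 genes (Nr3c1, Sgk1 and Tsc22d3), against 17.8% of all genes. Within experiments, which share no library, 4 of the 10 were higher in TCRb-/- in both (Hsd11b1, Fkbp5, Tsc22d3 and Zbtb16), against 27% of all genes. Another 3 were lower in both (Nr3c1, Sgk1 and Klf9), against 24.5%. With 10 genes chosen for their known biology, and with earlier results of these data known, these shares describe the genes and are no test of them.

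Each pair of pools was also set against counting error, which is the smallest error the data can have. In experiment 1 the 95% counting interval of the TCRb-/- to WT ratio excluded 1 for 8 of the 10 genes, against 37.7% of all genes, and in experiment 2 for 4, against 31.6%. The 4 were Hsd11b1, Sgk1, Tsc22d3 and Klf9. These intervals hold no spread between pools of the same genotype. They also narrow as reads rise, so the counts depend on read depth as well as on the size of a ratio. Sgk1 was among the 8 with a ratio of 0.95 (0.92 to 0.98) in experiment 1. An exact permutation test of 2 against 2 libraries cannot give a p below 0.333.

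**Figure D3:**
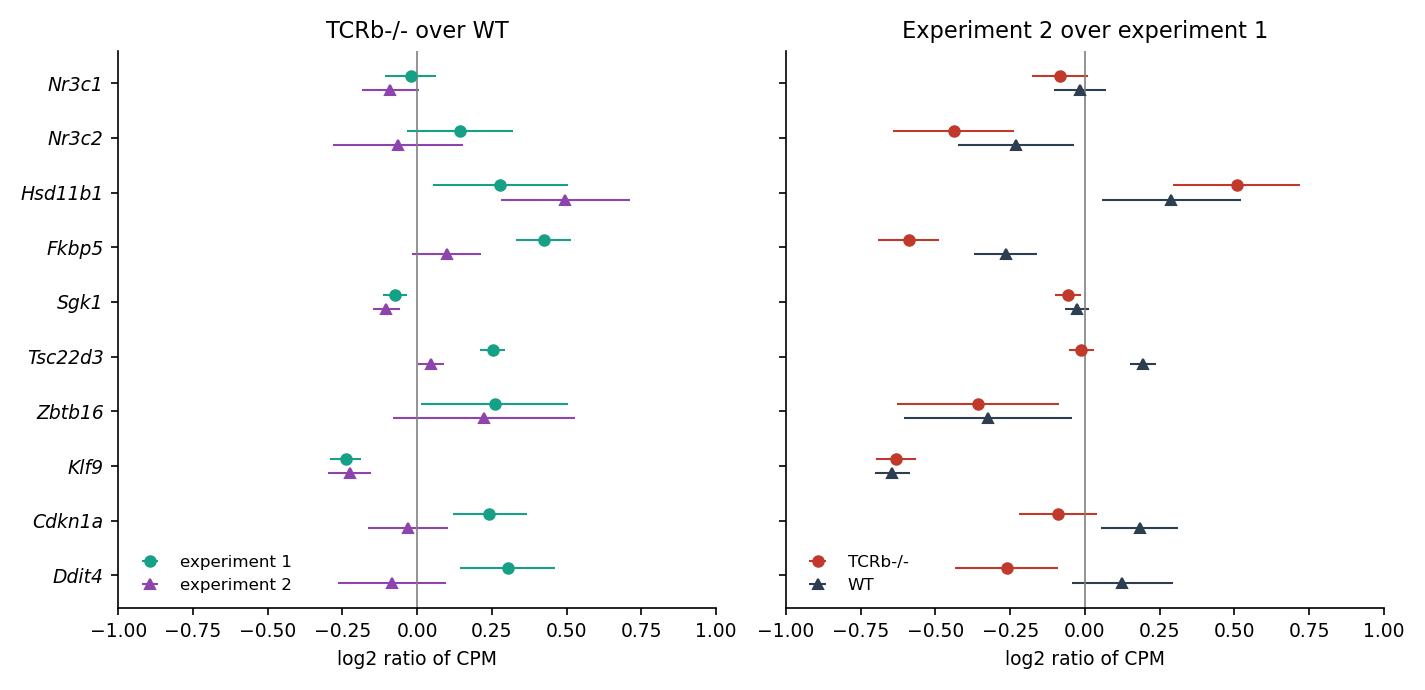
Log2 ratio of CPM for each gene, left TCRb-/- over WT in each experiment, right experiment 2 over experiment 1 in each genotype, with bars for 95% counting intervals. On the left Klf9 lies near -0.24 in experiment 1 and -0.23 in experiment 2. On the right it lies at -0.63 and -0.64, while Tsc22d3, Cdkn1a and Ddit4 differ in sign between genotypes.

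The experiments were also compared, with both genotypes on each side. The genotype fit without the block counts the difference between experiments as spread, and the fit with the block does not. Without the block the intervals of these genes were wider. Klf9 and Fkbp5 were lower in experiment 2. Klf9 fell by 0.63 on the log2 scale (SE 0.10, limma adjusted p 0.00806), from 233 ± 27.2 to 149.6 ± 16.5 CPM (SD, n = 2 each), and by the same amount in TCRb-/- and WT pools, 0.63 and 0.64. Fkbp5 fell by 0.42 (SE 0.13, limma adjusted p 0.04998), from 77.6 ± 16.01 to 57.1 ± 2.75 CPM, with -0.58 in TCRb-/- and -0.26 in WT. So 2 of the 10 genes were called, against 23.7% of all genes, and both were lower, against 14.7%. The share of the 10 genes called was near that of all genes. Of all calls 37.8% were higher in experiment 2, a share of 46.8% under median-of-ratios scaling, 50.6% under quantile normalization and 47.8% with the length trend removed. The share was 20.7% without a trend in the moderation and 27.8% without TCRb-/- replicate 2.

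The calls differed in how they stood up to other settings. Klf9 kept its call under 15 of 16 alternatives, among them the removal of a trend on gene length, and lost it when moderation had no trend (adjusted p 0.0550). Fkbp5 kept its call under 4 of 16, with adjusted p from 0.0177 to 0.241. With the length trend removed its difference was -0.24 (adjusted p 0.241), and without TCRb-/- replicate 1 it was -0.21 (0.173). Without WT replicate 2 it was -0.37 (0.0568). At 9.47 kb of exon Fkbp5 is the longest of the 10 genes, and across 13580 genes the difference between experiments had a Spearman rho of -0.398 with exon length, so that longer genes were lower in experiment 2. Klf9 has 4.82 kb, near the median of 4.46 kb. Whether exon length is a cause of the difference of either gene was not tested.

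Of the 8 genes not called, Nr3c2 had a difference of -0.32 between experiments (-0.57 to -0.06, limma adjusted p 0.0709), Zbtb16 -0.31 (-0.65 to 0.04, 0.166) and Hsd11b1 0.37 (-0.03 to 0.78, 0.156). These 3, with Fkbp5 and Klf9, were the 5 of 10 genes whose experiments did not overlap, against 67.3% of all genes. In both genotypes 6 of the 10 were lower in experiment 2, against 42.2% of all genes, and 1, Hsd11b1, was higher, against 35.1%. Of the 6, Nr3c1 and Sgk1 had differences above 0 with the length trend removed (0.11 and 0.039). Without TCRb-/- replicate 2 the Hsd11b1 difference was 0.14 (adjusted p 0.637). Without WT replicate 2 it was 0.61 (adjusted p 0.0142), and with the block and the length trend removed 0.42 (0.0497), both past the threshold.

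Nr3c1, Sgk1, Tsc22d3, Cdkn1a and Ddit4 overlapped between experiments, with differences from -0.07 to 0.09 and limma adjusted p from 0.480 to 0.768. Their 95% intervals lay between -0.34 and 0.30. The experiments also differed in tissue markers. Klf9 had the library order of the cortical and hippocampal genes (739, 700.3, 426 and 339 CPM in WT replicate 1, TCRb-/- replicate 1, WT replicate 2 and TCRb-/- replicate 2), of which 7 of 9 were called lower in experiment 2. Nr3c2 had the order of the striatal genes, of which 10 of 10 were called lower, and that of the blood list, with 1 of 5 genes listed. Fkbp5 and Zbtb16 had the order of the endothelial genes, 7 of 8 listed, whose sums ran from 12.97 to 16.6 CPM with 0 of 5 called. There were 13 marker lists, and the share of all genes with the order of any list was not counted. A shared order therefore does not tie a gene to a list. The part of tissue makeup in these genes was not tested.

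Other genes of the pathway were taken from 4 lists of 65 genes, chosen by function with earlier results of these data known. Their shares beside those of all genes describe the lists and are no test of them. Of 30 tested glucocorticoid-induced genes other than the 7 above, limma called 0 by genotype. In both experiments 17 were higher in TCRb-/- and 4 lower, against 27% and 24.5% of all genes. Of the 9 astrocyte markers 6 were also higher in both and 1 lower, with the sums given above for Tsc22d3, and their part in these counts was not tested. The median difference was 0.08, against 0.00 over all tested genes, and ran from 0.041 without TCRb-/- replicate 1 to 0.11 without TCRb-/- replicate 2. Over the 7 targets the median was 0.11, but it was 0.24 in experiment 1 and -0.031 in experiment 2. Over the 10 genes it was 0.10, and -0.027 without TCRb-/- replicate 1. Mt2, a metallothionein, was at 83.4 CPM (experiment 1) and 91.8 CPM (experiment 2) in the TCRb-/- pools, against 67.8 and 81.4 CPM in the WT pools (0.23, unadjusted limma p 0.172, and 0.0157 with the block). Angptl4, an inhibitor of lipoprotein lipase, had 4.76 and 5.20 CPM against 3.40 and 4.47 (0.29, unadjusted p 0.225, and 0.125 with the block). Neither passed the threshold, the adjusted p with the block being 0.848 and 0.877.

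Between experiments 3 of the 30 were called, a share below that of all genes. Cebpb, a bZIP transcription factor, was higher in experiment 2 by 0.40 (23.1 ± 0.727 against 17.2 ± 0.891 CPM, limma adjusted p 0.0299). Mertk, a phagocytic receptor kinase, fell by 0.56 (adjusted p 0.0385) and Hif3a, a hypoxia-inducible factor subunit, by 0.57 (adjusted p 0.04535). With the length trend removed 1 of the 30 was called, lower in experiment 2, and 0 were without TCRb-/- replicate 1 or 2. Without WT replicate 1 there was 1.

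Chaperones and co-chaperones that fold the unbound receptor, 10 of 10 tested, had a median of -0.06 by genotype with 0 called, and of 0.059 without TCRb-/- replicate 1. Hsph1 and Hsp90ab1 had the smallest unadjusted p there, at -0.19 (0.168) and -0.23 (0.193) in limma. With the block these were 0.0257 and 0.0373, each with an adjusted p of 0.848. Between experiments 4 of 10 rose and 0 fell, against 8.95% and 14.7% of all genes. The 4 were Ptges3, the p23 co-chaperone (0.41), the heat shock cognate Hspa8 (0.32), its partner Dnaja1 (0.27) and Fkbp4, which opposes Fkbp5 on the receptor (0.24), with limma adjusted p from 0.01001 to 0.0473. With the length trend removed 4 of 10 were called higher. Leaving out 1 library gave 1 without TCRb-/- replicate 1, 1 without TCRb-/- replicate 2, 2 without WT replicate 2 and 6 of 10 without WT replicate 1.

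Coregulators that the receptor recruits, 12 of 12 tested, went the other way between experiments. Called lower in experiment 2 were 5 of 12, the 3 steroid receptor coactivators Ncoa1 (-0.53), Ncoa2 (-0.50) and Ncoa3 (-0.66), the corepressor Nrip1 (-0.56) and the Mediator subunit Med14 (-0.38), with limma adjusted p from 0.00635 to 0.0297. The share of all genes called lower was 14.7%. In both genotypes 12 of 12 were lower in experiment 2, against 42.2% of all genes. These are long genes, with a median of 9.63 kb of exon. With the length trend removed 3 of 12 were called and the median difference went from -0.28 to -0.06. The part of exon length in these differences was not tested. Without TCRb-/- replicate 1 or WT replicate 1 there were 3 of 12. By genotype their median was -0.02 with 0 called, Ppargc1a (-0.23, unadjusted limma p 0.203) and Med14 (-0.16, 0.479) having the smallest p. With the block these were 0.0434 and 0.102, with adjusted p of 0.848 and 0.859.

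Of the list of steroid metabolism and transport, 5 of 11 genes were tested and 0 were called in either comparison. Por, the electron donor of microsomal steroid-converting P450 enzymes, was at 179 CPM (experiment 1) and 172 CPM (experiment 2) in the TCRb-/- pools, against 154 and 158 CPM in the WT pools (0.17, unadjusted limma p 0.208, and 0.0428 with the block, adjusted 0.848). Its genotypes did not overlap. Abcc1, an efflux transporter, had a difference of -0.17 (0.429, and 0.240 with the block).

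**Figure D4:**
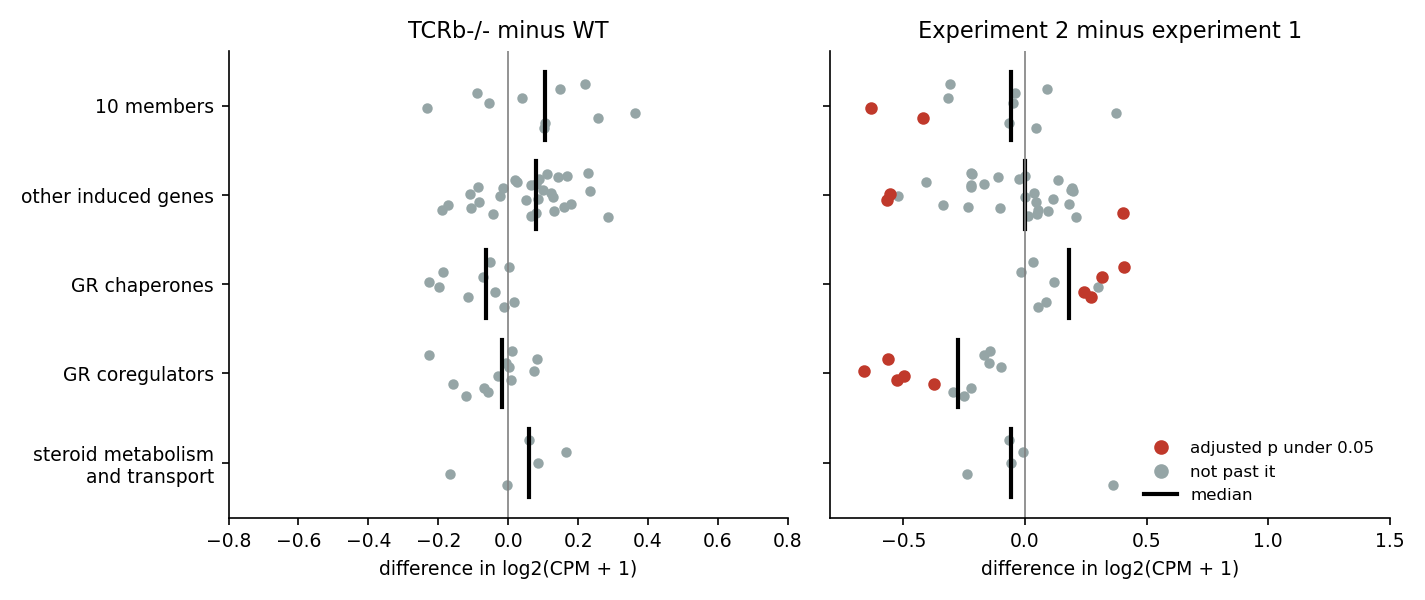
Difference in log2(CPM + 1) of each tested gene by list, left TCRb-/- minus WT, right experiment 2 minus experiment 1, with called genes in red, others in grey and the median of each list as a black bar. On the left no gene is called. On the right 4 chaperone genes are called higher and 5 coregulator genes lower.

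Klf9 had the widest range of the 10 genes over the 4 libraries, 0.87 on the log2(CPM + 1) scale. The genes most like it, by the root mean square difference of their centred log2 profiles over 4 libraries among 13911 genes, were Slc24a2 (0.012), Otud4 (0.019) and Rasgef1b (0.023). Slc24a2, a potassium-dependent sodium-calcium exchanger, was at 58.7 CPM (experiment 1) and 37.6 CPM (experiment 2) in the TCRb-/- pools, against 68.6 and 44.7 CPM in the WT pools. Otud4, a deubiquitinase, had 20.2 and 12.9 CPM against 23.7 and 15.4. Rasgef1b, a Ras exchange factor, had 48.1 and 32.3 CPM against 58.6 and 37.0. All 3 were thus high in experiment 1 and lower in TCRb-/- than in WT within each experiment. Within a difference of 0.1 there were 251 genes, so 4 libraries do not single out a few.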

How the data were processed

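RNA was taken from cleared cytoplasmic lysate of pooled septal tissue with an RNA integrity number above 9, and libraries were made with a SMARTer ultra-low-input kit, per the labels' protocols. HISAT2 2.1.0, SAMtools 1.3, HTSeq 0.9.1, R 4.0.5, limma 3.46.0 and mm10 are named in the submitters' processing notes, with no role given. The values the authors deposited are log2 CPM, which was taken from the values themselves to be reads plus 0.5 over the library total plus 1. When inverted on that formula, 100% of values came out as whole reads within 0.001 reads. No listed gene had under 10 reads in its highest library or under 0.447 CPM in its second-highest, and 17 spike-in rows were left out.

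From the recovered reads, log2(CPM + 1) was computed, which understates changes of low genes, and the 13912 genes whose mean reached 1 CPM were tested. The test of genotype, and that of experiment, was limma 3.58.1 under R 4.3.3 (trended moderation, two-sided, Benjamini-Hochberg over all genes tested, threshold 0.05), with no other term. The fit was run on simulated counts in which only the tested factor changed genes. For genotype that setting has no difference between experiments, so it does not vouch for the genotype fit here. Exon lengths, the union of annotated exons of each gene, came from GENCODE M21 (GRCm38) and covered 97.6% of tested genes. Counting intervals are exact at 95%; they cover counting error only, as PCR copies are not separate molecules. Other steps used scipy 1.17.1, matplotlib 3.10.9, pandas 2.3.3 and numpy 2.4.6 in Python 3.11.15.

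The labels put 1 library of each genotype in each experiment, which pairs libraries of the same number. Across genes, the deviations of paired libraries from their genotype's mean had a Pearson r of 0.72, and principal component 1 (76.7% of the variance) split the experiments. Alternatives were other pseudocounts (0.1, 5), filters (none, 10 CPM), scalings, moderation, voom weights, the block, removal of a length trend, and leaving out each library. Members and lists were chosen with earlier results of these data known. Beyond the members, list genes were named if called (at most 8 per list), otherwise the 2 of smallest p, with the 3 genes most like the member of widest range. Acnat2 and Gm35041 fall outside that rule and were named after the promoter search; they have no values here.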

Additional observations from a re-analysis of the deposited data

Results flagged for a closer look

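For 3 genes the genotype difference in log2(CPM + 1), TCRb-/- minus WT, had opposite signs in the 2 experiments, each with 1 library per genotype. Nr3c2 had 0.14 in experiment 1 and -0.061 in experiment 2. Cdkn1a had 0.24 and -0.031, and Ddit4 0.29 and -0.080. The differences between experiments were not tested, since no replicate is left for an interaction.

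The change from experiment 1 to experiment 2 had opposite signs in the genotypes for 3 genes as well. Tsc22d3 had -0.012 in TCRb-/- and 0.19 in WT. Cdkn1a had -0.089 and 0.18, and Ddit4 -0.25 and 0.12. For Cdkn1a and Ddit4 these are the same 4 values seen from the other side. These too were not tested.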

How the results depend on the processing

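With all libraries, the 119 values of the genotype difference of single members under an alternative kept direction and side of the threshold, which says little, as none was near it. Of 119 between experiments 102 did. The count of genes called by genotype went from 0 to 2 with the replicate block, 2 with the replicate block and voom weights, and 2 with the replicate block and the length trend removed. The block changed no call of a member on its own. Members called between experiments went from 2 to 1 (Klf9) with another pseudocount (0.1 or 5), another filter (none, or 10 CPM), quantile or median-of-ratios scaling, voom weights or the length trend removed, and to 0 without a trend. Without a trend genes called between experiments went from 3292 to 629 and pathway genes from 12 to 4. The cause was not tested. Among 3292 calls 37.8% were higher in experiment 2, among 3227 under quantile normalization 50.6%, among 2385 with the length trend removed 47.8%, among the 629 without a trend 20.7% and among 1823 without TCRb-/- replicate 2 27.8%.

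Between experiments Nr3c1 changed sign with the length trend removed, with or without the replicate block (0.11), as did Sgk1 (0.039), and Ddit4 did under quantile normalization (0.016). Leaving out 1 library leaves a lone sample, assumed to vary like the others, and unbalances the other factor by construction. Counts then ranged from 0 to 47 by genotype (47 without TCRb-/- replicate 1, 1 without TCRb-/- replicate 2) and from 1406 to 3390 between experiments (1406, 1823 and 1637 without TCRb-/- replicate 1, TCRb-/- replicate 2 and WT replicate 1). Members called between experiments ranged from 1 to 2 and pathway genes from 4 to 10 (4 without TCRb-/- replicate 1, 5 without TCRb-/- replicate 2). Of the members that changed sign, genotype differences ranged from -0.17 to 0.25 for Nr3c2, -0.034 to 0.55 for Fkbp5, -0.020 to 0.23 for Ddit4 and -0.55 to 0.090 for Klf9, and differences between experiments from -0.21 to 0.079 for Ddit4, -0.093 to 0.0093 for Sgk1, -0.035 to 0.22 for Tsc22d3 and -0.073 to 0.16 for Cdkn1a. The other genotype differences kept their sign, from -0.097 to -0.013 for Nr3c1, -0.12 to -0.060 for Sgk1, 0.12 to 0.60 for Hsd11b1, 0.053 to 0.25 for Tsc22d3, 0.057 to 0.38 for Zbtb16 and 0.014 to 0.19 for Cdkn1a. With 178 to 293 reads per library, Zbtb16 is the member that depth limits most.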
